A study of Sus scrofa with 20 samples.

Results

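Chemokines are small secreted proteins that guide the movement of white blood cells, and their genes were examined here together with those of their receptors in backfat and liver of Nanchukmacdon pigs. A gene of the count table was included when the symbol of its pig Ensembl identifier was CCL, CXCL, CCR or CXCR with a number, CCL3L1, CX3CL1, CX3CR1, XCL1 or ACKR1 to ACKR4. The rule gave 41 of the 31907 genes in the table, 24 ligands (16 of the CC class, 7 of the CXC class and XCL1) and 17 receptors (8 CC receptors, 5 CXC or CX3C receptors and 4 atypical receptors). The identifiers named CCL22 and CCR8 were not among the rows of the table, and CX3CL1, CXCL16, CXCL13, CCL20, CCL24, CCR2 and CXCR2, for which no identifier was matched, were not analysed here.

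Backfat, the subcutaneous adipose tissue of the pig, and liver were taken from boars. The sample labels give an age of 22 months and a normal disease state, while the methods of the study state a higher average age. The sample titles mark every sample as WT (wild type), and no treatment or genetic change is named for either tissue. Poly(A) RNA was sequenced in 5 libraries of each tissue, named here by the boar number of the column (65, 67, 69, 71 and 72). Each library is a piece of whole tissue, so fewer cells of a type and less RNA per cell cannot be told apart in any of the values below. A level is given as CPM, the count of a gene scaled to the size of its library, after TMM normalization, which makes libraries comparable. Chemokine genes were ranked by level, and their levels summed over a class, only after division by the exon length in kilobases. Ratios between genes within a library use counts without that division. They therefore compare the tissues and do not order the genes within a tissue. DEGs are genes with a false discovery rate (FDR) no higher than 0.05 whose log2 fold change reached 2 or −2, and a positive fold change means a higher level in backfat. FDR is the p-value of the quasi-likelihood test of edgeR, adjusted by Benjamini-Hochberg over the 16275 genes tested. Every FDR below comes from that fit unless another setting or tool is named with it. In those settings the adjustment runs over the genes tested there.

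Backfat libraries held 45157114 to 61772737 counts, and those of liver 43820042 to 53768601. Hepatocyte markers summed to 24999 to 89994 CPM in liver and to 202 to 717 CPM in backfat, and adipocyte markers to 15140 to 22182 CPM in backfat and 9.04 to 17.9 CPM in liver, each as CPM of all counts without TMM. All 8 hepatocyte and all 7 adipocyte markers were DEGs in the direction of their tissue. Marker sums below are also without TMM, while levels of chemokine genes are with TMM. The TMM factors were 1.18 to 1.44 for backfat and 0.649 to 0.916 for liver libraries. They lower backfat levels and raise liver levels relative to CPM without TMM. The backfat library of boar 69 stood apart with the highest hepatocyte sum. The liver library of boar 67 stood apart with the lowest hepatocyte sum and with the highest plasma cell, dendritic cell, bile duct, red cell and skeletal muscle sums, and mitochondrial genes made up 444789 CPM of it. Where leaving out 1 of these libraries changed the call of a gene reported here, its value without that library is given below. For some other genes it is given as well.

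Chemokines bind receptors that thread through the membrane and signal through inhibitory G proteins and turn a gradient of ligand into directed movement. The ligand classes are named after the spacing of their first cysteines. Inflammatory ligands such as CCL2, CCL5 and CXCL10 are induced in injured or infected tissue, whereas homeostatic ligands such as CXCL12, CCL19 and CCL21 are made constantly and hold cells in place. The atypical receptors bind chemokines without that G protein signal, and they take up, carry or break down the ligand and so shape its gradient. Adipose tissue and liver both house macrophages and lymphocytes that respond to these signals.

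Of the 41 genes, 36 had enough counts to be tested. The 5 that did not were CCL27, with 0 counts in all 10 libraries, CCL1, CCL17, CCR4 and CCR6, none of which exceeded 25 counts in any library. A level of at least 1 CPM in all 5 libraries was reached by 23 genes in backfat and by 23 in liver, by 19 in both and by 14 in neither. Of these 36 genes, 6 were DEGs with a higher level in backfat and 6 with a higher level in the liver, which together is 33.3% of the genes tested. Over all genes 22.3% were DEGs, of which those higher in backfat were 11.1% and those higher in liver 11.2% of the genes tested. At the FDR alone 9 of the chemokine genes were higher in backfat and 13 in liver, which is 61.1% of the genes tested, beside 55.0% of all genes (28.0% higher in backfat and 27.0% in liver). The libraries of the tissues did not overlap for 17 of the 36 genes, or 47.2%, beside 42.6% of all genes. The median log2 fold change was −0.67 over the 36 genes and 0.00 over all genes.

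The calls were spread unevenly over the classes. All 4 atypical receptors were DEGs higher in backfat, with a median log2 fold change of 3.92. Among the 6 CC receptors tested 1 was a DEG, higher in liver, with a median of −0.43, and among the 5 CXC and CX3C receptors 1 was a DEG, higher in liver, with a median of −0.63. Among the 13 CC ligands tested 1 was a DEG higher in backfat and 2 in liver, with a median of −1.09. Among the 7 CXC ligands 1 was a DEG higher in backfat and 2 in liver, with a median of −0.82. XCL1, the ligand left over, did not pass the FDR.

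**Figure D1:**
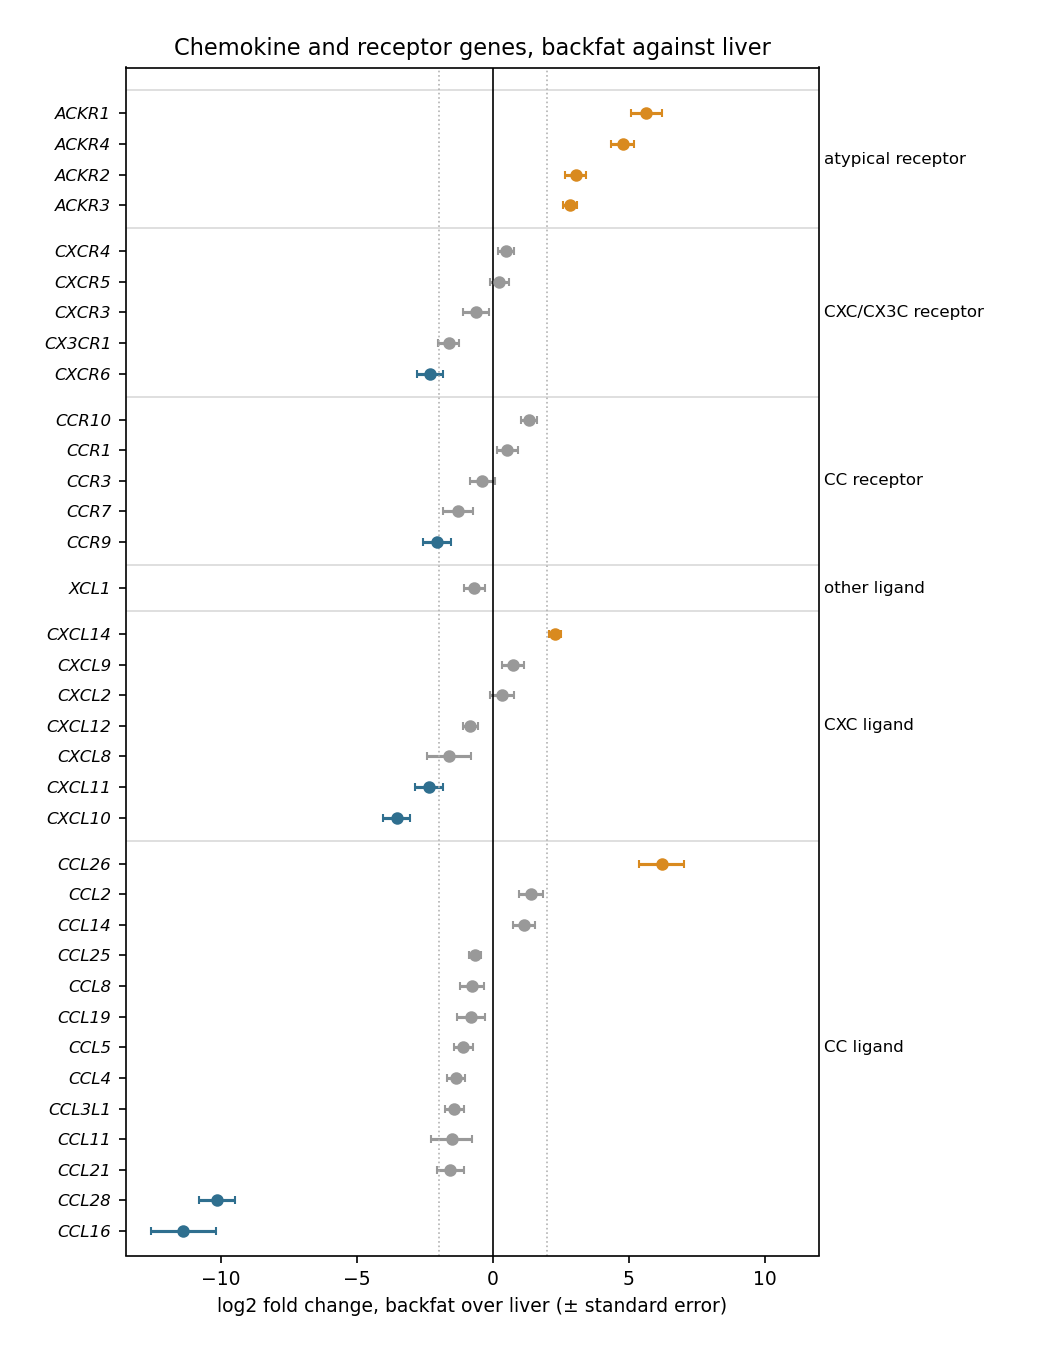
Log2 fold change of backfat over liver with its standard error for 35 of the 36 chemokine and receptor genes tested, grouped by class. Orange marks DEGs higher in backfat, blue marks DEGs higher in liver, grey marks genes that were not DEGs, and dotted lines mark a log2 fold change of 2 in each direction. The 4 atypical receptors lie between 2.84 and 5.65, to the right of all other receptors.

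The atypical receptors are described first. ACKR1, the Duffy antigen receptor, binds many CC and CXC chemokines on the endothelium of venules and on red cells. The gene lies at chr4:91224089-91225610 on the minus strand of Sscrofa11.1. Its level in backfat was 21.1 CPM in boar 65, 46.1 in boar 67, 57.6 in boar 69, 24.5 in boar 71 and 24.5 in boar 72. In liver it was 0.274, 1.73, 0.255, 0.316 and 0.895 CPM in the same order of boars. The tissues did not overlap, and the highest liver library was that of boar 67, in which the red cell markers were also highest. In backfat the red cell markers summed to 180 CPM in boar 69, the highest library for ACKR1. They were highest in boar 72, at 577 CPM. Their part in the level of ACKR1 was not tested. The log2 fold change of ACKR1 was 5.65 ± 0.58 (SE), a 50.2-fold higher level in backfat (FDR 4.75e-06). Without liver 67 it was 6.29 (FDR 8.50e-07).

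ACKR4, which takes up the homeostatic ligands CCL19, CCL21 and CCL25, lies at chr13:73773862-73777770 on the plus strand. It reached 97.8, 89.5, 120.2, 95.6 and 131 CPM in backfat of boars 65, 67, 69, 71 and 72, against 2.87, 1.49, 7.71, 1.99 and 5.32 CPM in liver. Every backfat library was above every liver library, and the 5 backfat values stayed within 1.46-fold of each other. ACKR4 thus had a log2 fold change of 4.78 ± 0.43 (FDR 1.43e-06).

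ACKR2 scavenges inflammatory CC chemokines such as CCL2 and CCL5, and its gene lies at chr13:26291583-26329506 on the plus strand. Its backfat levels were 7.90, 34.6, 13.9, 11.6 and 11.8 CPM in boars 65, 67, 69, 71 and 72, and its liver levels were 1.65, 2.48, 2.08, 1.74 and 1.65 CPM. The tissues did not overlap although the backfat library of boar 67 stood far above the other 4. Its log2 fold change was 3.05 ± 0.38 (FDR 2.44e-05). In RefSeq 67 exon bases are shared with the neighbouring gene ZNF662 on the same strand. Where the Ensembl exons used in the counting also overlap, reads could not be assigned to either gene.

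ACKR3 (CXCR7), at chr15:136370457-136382559 on the plus strand, binds CXCL12 with CXCR4 and removes it from the extracellular space. It was measured at 50.4, 77.1, 47.2, 56.0 and 84.5 CPM in backfat and at 6.73, 8.69, 5.44, 11.5 and 11.6 CPM in liver of boars 65, 67, 69, 71 and 72. Again no liver library reached the lowest backfat library. On the log2 scale the difference was 2.84 ± 0.26 (FDR 1.75e-06).

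**Figure D2:**
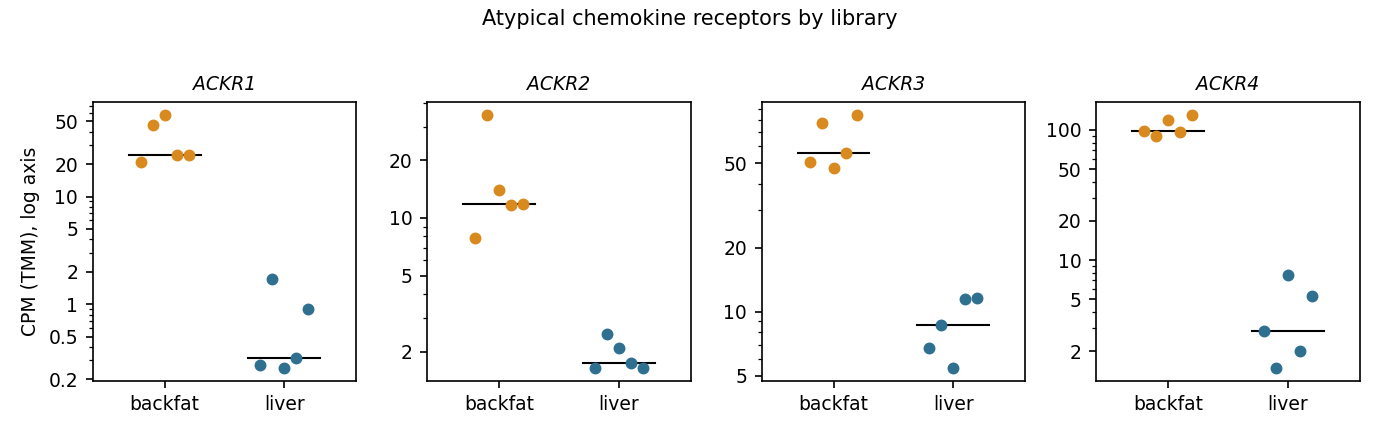
Level of each atypical chemokine receptor gene in TMM-normalized CPM on a log axis, with a point for each library (boars 65, 67, 69, 71 and 72 from left to right) and a line at the median of the tissue. In each panel the 5 backfat libraries lie above the 5 liver libraries.

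Summed over the 4 genes, the atypical receptors had a level of 97.3 to 140.4 CPM per kilobase in backfat and 5.31 to 9.58 in liver. The other 13 receptors summed to 6.4 to 13.2 CPM per kilobase in backfat and 10.5 to 17.7 in liver. Atypical receptors therefore made up most of the receptor sum in each backfat library and the smaller part of it in liver by median (7.24 against 15.7).

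Markers of the cells that could carry these receptors were read in the same libraries. Vascular endothelial markers summed to 826 to 1634 CPM in backfat and 80.5 to 181 CPM in liver, and 4 of the 5 tested were DEGs higher in backfat. Markers of liver sinusoidal endothelium overlapped as CPM without TMM, at 128 to 354 CPM in backfat and 281 to 495 CPM in liver. Divided by the TMM factors, every liver sum was above every backfat sum. Of the 3 tested 1 was a DEG, higher in liver. It was CLEC4G, at 0.101 to 0.412 CPM in backfat and 130 to 226 CPM in liver without TMM (log2 fold change −10.02). STAB1, with medians of 263 CPM in backfat and 238 CPM in liver, made up most of the backfat sum. Neither STAB1 nor LYVE1 passed the FDR. Stromal markers summed to 30594 to 58973 CPM in backfat and 375 to 684 CPM in liver, with 5 of 6 DEGs higher in backfat. Lymphatic endothelial markers overlapped as CPM without TMM, at 68.0 to 90.2 CPM in backfat and 70.6 to 131 CPM in liver. Their liver sums were also all above those of backfat when divided by the TMM factors. Of the 5 markers 1 was a DEG higher in backfat (PDPN 3.73) and 2 were higher in liver (PROX1 −5.97 and RELN −2.73). The log2 fold changes of the 5 vascular endothelial markers ran from 1.36 for TEK to 3.41 for EMCN. The part of endothelium or stroma in the levels of the atypical receptors was not tested.

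Among the signalling receptors, those that passed the FDR were CXCR6, CCR9 and CX3CR1 in liver and CCR10 in backfat. CXCR6, a receptor of resident T and NK cells, was at 0.406, 0.427, 0.151, 0.126 and 0.0858 CPM in backfat of boars 65, 67, 69, 71 and 72 and at 1.30, 1.78, 0.998, 1.04 and 0.976 CPM in liver. These levels did not overlap, and the log2 fold change was −2.32 ± 0.48 (FDR 0.00132). CXCR6 was no DEG with scaling by library size alone (−1.55) or when tested against the fold threshold (glmTreat, FDR 0.495). In RefSeq its exons overlap those of FYCO1 on the opposite strand for 333 bases. The counting used Ensembl exons without strand, so reads of the 2 genes cannot be told apart where those exons overlap.

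CCR9, the receptor of CCL25 on lymphocytes that home to the gut, was low in both tissues. It had 4 to 19 counts in the backfat libraries and 17 to 58 in the liver libraries, or 0.0673 to 0.326 CPM against 0.361 to 1.57 CPM. Its log2 fold change was −2.07 ± 0.52 (FDR 0.00453) and was −1.69 without liver 67, −1.45 without backfat 69 and liver 67, and −1.30 with scaling by library size alone, so that it was no longer a DEG in these settings.

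CX3CR1, found on monocytes and tissue macrophages, was at 8.54, 3.80, 7.55, 2.45 and 3.05 CPM in backfat and 21.2, 9.83, 20.3, 9.10 and 18.1 CPM in liver of boars 65, 67, 69, 71 and 72. The liver libraries were all higher than the backfat libraries, with a log2 fold change of −1.63 ± 0.39 (FDR 0.0034). It did not pass with scaling by library size alone (−0.94, FDR 0.075). General macrophage marker sums overlapped as CPM without TMM, at 184 to 403 CPM in backfat and 251 to 351 CPM in liver. Divided by the TMM factors, the scale of CX3CR1, every liver sum was above every backfat sum. Of the 5 markers 0 were DEGs by edgeR, DESeq2 or limma-voom. In edgeR 3 of the 5 had an unadjusted p under 0.05. With TMM these 3 passed the FDR with a higher level in liver (AIF1 −1.69, CD163 −1.37 and MRC1 −0.70). As CPM without TMM the medians in backfat and liver were 24.6 and 39.7 for AIF1 and 40.4 and 80.6 for CD163. For MRC1 they were 36.1 and 28.6, so its direction depended on the scaling. Kupffer cell markers did not overlap, at 12.6 to 24.9 CPM against 78.4 to 126 CPM with 3 of 4 DEGs higher in liver. Their part in the level of CX3CR1 was not tested.

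CCR10, a receptor of CCL27 and CCL28, was higher in backfat, at 1.62 to 2.40 CPM against 0.540 to 0.998 CPM in liver. Its log2 fold change was 1.33 ± 0.29 (FDR 0.00172), below the threshold for a DEG. The exons counted for it in Ensembl are longer than the whole gene in RefSeq, as also for CCL4 and CXCL2. Reads outside the RefSeq gene may thus have entered these 3 counts. Among the 41 genes 11 had Ensembl exons more than 2 times as long as those of RefSeq. They include the DEGs CCL28 (6319 against 891 bases) and CCR9 (4760 against 1350 bases), whose counts may also hold reads outside the RefSeq exons.

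The signalling receptors that follow did not pass the FDR, and the tissues overlapped for each of them. CXCR4, the signalling receptor of CXCL12, was at 4.41 to 7.64 CPM in backfat and 2.14 to 5.91 CPM in liver (log2 fold change 0.48 ± 0.29, FDR 0.177, or 1.25 and FDR 0.00199 with scaling by library size alone). CCR1 and CCR3, receptors of CCL5 and, for CCR3, of the eotaxins, had log2 fold changes of 0.53 ± 0.39 and −0.38 ± 0.44. CXCR3, the receptor of CXCL9, CXCL10 and CXCL11, was at 0.162 to 0.846 CPM in backfat and 0.316 to 1.15 CPM in liver (−0.63 ± 0.47, FDR 0.279). CXCR5, a receptor of follicular B and T cells, was at 0.656 to 1.59 CPM against 0.537 to 1.05 CPM (0.23 ± 0.35). In RefSeq the exons of CCR1 share 243 bases with XCR1 on the same strand, and those of CXCR5 share 120 with BCL9L on the other. CCR7, which draws dendritic cells and T cells toward CCL19 and CCL21, was at 0.559 to 1.59 CPM in backfat and at 0.997 to 1.55 CPM in 4 liver libraries, with 7.34 CPM in liver 67 (−1.29 ± 0.56, FDR 0.0696). Without liver 67 the log2 fold change of CCR7 was −0.37 (FDR 0.364). T cell markers overlapped between the tissues, at 16.6 to 68.8 CPM in backfat and 20.1 to 60.5 CPM in liver, with 0 of 6 DEGs by edgeR, DESeq2 or limma-voom. In edgeR 3 of the 6 had an unadjusted p under 0.05. With TMM these 3 passed the FDR with a higher level in liver (CD6 −1.72, CD5 −1.69 and CD2 −1.06). Their part in the levels of the receptors was not tested. The sums were highest in backfat 65 and liver 67.

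CCL16 had the largest fitted log2 fold change of the ligands, although its order against CCL28, which had 0 counts in backfat, is not settled. It is known as a chemokine made by hepatocytes, and it attracts monocytes and lymphocytes. Its gene lies at chr12:39618187-39621557 on the plus strand, within a run of 9 CC ligand genes at chr12:39479190-40800013. Its level was 1403, 775, 1205, 3448 and 2291 CPM in liver of boars 65, 67, 69, 71 and 72. In backfat it was 0.0902, 0.290, 2.59, 0.162 and 0.292 CPM. The liver library of boar 67 was the lowest of its tissue and the backfat library of boar 69 the highest of its own, and those are also the lowest liver and the highest backfat library in the hepatocyte markers. The log2 fold change was −11.38 ± 1.18 (FDR 4.86e-06). Without backfat 69 it was −13.10 (FDR 1.31e-07), and without backfat 69 and liver 67 it was −13.30. CCL16 alone held 48.4 to 80.9% of the counts of all 41 genes in a liver library and 0.0149 to 0.318% in a backfat library.

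CCL14 lies directly beside CCL16 on the same strand and encodes a ligand of CCR1. Its level was 26.7, 35.1, 65.3, 34.0 and 26.7 CPM in backfat and 8.23, 33.1, 8.45, 21.5 and 13.5 CPM in liver of boars 65, 67, 69, 71 and 72. The tissues overlapped through liver 67. For CCL14 the log2 fold change was 1.15 ± 0.40 (FDR 0.0266), and the FDR was above 0.05 when backfat 69, liver 65, liver 69 or liver 72 was left out (0.0776, 0.0505, 0.0548 and 0.0689). In a single library the counts of CCL16 were 23.4 to 170 times those of CCL14 in liver, and 0.00338 to 0.0397 times in backfat. These neighbours thus differed between the tissues in opposite directions, although the call of CCL14 was lost in those 4 settings.

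CCL28, a ligand of CCR10 and CCR3 made by mucosal epithelium, was at 0 counts in all 5 backfat libraries. In liver it had 71 to 165 counts, or 2.14, 4.46, 2.36, 2.69 and 1.93 CPM in boars 65, 67, 69, 71 and 72. With a floor of 3 counts over all backfat libraries, the upper limit that 0 counts leave, the level was at least 293-fold higher in liver (FDR 3.16e-06). This bound covers counting error only. The gene lies at chr16:27990024-28010859 on the minus strand.

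CCL26 (eotaxin-3, a ligand of CCR3) showed the reverse. It was at 4.58, 8.74, 11.5, 1.93 and 1.92 CPM in backfat of boars 65, 67, 69, 71 and 72, and its liver libraries held 0 to 8 counts, or up to 0.216 CPM in boar 67. No library overlapped, and the log2 fold change was 6.22 ± 0.83 (FDR 3.97e-05), or 7.06 without liver 67. The receptor CCR3 had 1.39 to 6.77 CPM in backfat and 2.61 to 7.16 CPM in liver. CCL26 lies at chr3:10381306-10385677 on the plus strand.

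The inflammatory CC ligands differed less. CCL2, the main attractant of monocytes, was at 18.8, 25.3, 19.7, 35.8 and 100.4 CPM in backfat and at 11.7, 21.0, 10.7, 15.9 and 15.8 CPM in liver of boars 65, 67, 69, 71 and 72. The log2 fold change was 1.41 ± 0.44 (FDR 0.0156), and it was 0.74 (FDR 0.0306) without backfat 72, the library that stood apart. CCL2 was higher in backfat in all 5 boars.

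CCL5, CCL4 and CCL3L1, attractants of monocytes and T cells that T cells, NK cells and macrophages release, were higher in liver. CCL5 was at 15.0 to 32.6 CPM in backfat and 23.6 to 84.2 CPM in liver (log2 fold change −1.09 ± 0.34, FDR 0.0163), with its highest level in liver 67. With single libraries left out its log2 fold change ran from −1.28 to −0.79, with an FDR of at most 0.0428. CCL4 was at 2.59 to 6.99 CPM against 7.48 to 20.9 CPM (−1.35 ± 0.33, FDR 0.0037). CCL3L1 was at 0.580 to 1.15 CPM against 1.42 to 3.73 CPM (−1.42 ± 0.35, FDR 0.00396). CCL4 and CCL3L1 did not overlap between the tissues, while CCL5 did. With scaling by library size alone none of these 3 passed the FDR (CCL5 −0.30, CCL4 −0.65 and CCL3L1 −0.66). CCL3L1 belongs to a gene family with near-identical copies, between which the counting could split reads.

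CCL8 and CCL11, which lie next to CCL2, did not pass the FDR. CCL8 was at 0.473 to 1.25 CPM in backfat and 0.624 to 2.15 CPM in liver (−0.77 ± 0.43). CCL11 (eotaxin) was at 0.0153 to 0.622 CPM in backfat and 0.361 to 1.51 CPM in liver (−1.52 ± 0.75, FDR 0.103).

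Among the homeostatic CC ligands, CCL21, which is made by lymphatic endothelium and by stromal cells of lymphoid tissue, was at 15.3, 11.5, 38.6, 18.7 and 36.7 CPM in backfat and 28.7, 59.8, 27.5, 161 and 80.2 CPM in liver of boars 65, 67, 69, 71 and 72. The libraries overlapped, and the log2 fold change was −1.56 ± 0.50 (FDR 0.0187). It was −1.06 (FDR 0.055) without liver 71 and −0.77 (FDR 0.118) with scaling by library size alone. CCL19, the other ligand of CCR7, was at 17.2 to 38.4 CPM in backfat and 13.7 to 111 CPM in liver (−0.80 ± 0.53, FDR 0.217), and its highest library was liver 67, without which the log2 fold change was −0.13 (FDR 0.796). CCL25, a ligand of CCR9, was at 2.63 to 3.25 CPM in backfat and 3.74 to 5.61 CPM in liver without overlap (−0.65 ± 0.22, FDR 0.0229). With the boar as a block it did not pass the FDR (−0.64, FDR 0.0526), and with scaling by library size alone the sign turned (0.058).

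The ligand level and the level of its atypical receptor were set side by side within a library. The counts of ACKR4 were 1.56 to 3.0 times the summed counts of CCL19 and CCL21 in backfat and 0.00868 to 0.187 times in liver. Those of ACKR2 were 0.103 to 0.813 times the sum of CCL2 and CCL5 in backfat and 0.0236 to 0.0606 times in liver. Neither ratio overlapped between the tissues. These pairs and those below were chosen with the values known, so the ratios are a description without a test.

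The CXC ligands held the interferon-inducible genes CXCL9, CXCL10 and CXCL11, which attract activated T cells through CXCR3 and lie in a row on the minus strand of chromosome 8. The 250 bases before the RefSeq start of each gene in Sscrofa11.1 are shown because their levels differed from each other between the tissues. They cover chr8:71670237-71670486 for CXCL9, chr8:71695949-71696198 for CXCL10 and chr8:71725670-71725919 for CXCL11. Capitals mark the letters of an interferon response element (TTTC, any 2 bases and TTTC, on either strand) and of the NF-kB consensus on either strand.
CXCL9: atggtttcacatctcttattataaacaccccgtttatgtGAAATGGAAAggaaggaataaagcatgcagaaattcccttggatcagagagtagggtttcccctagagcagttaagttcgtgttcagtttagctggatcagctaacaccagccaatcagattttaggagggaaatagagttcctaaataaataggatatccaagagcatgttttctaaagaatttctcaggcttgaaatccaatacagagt
CXCL10: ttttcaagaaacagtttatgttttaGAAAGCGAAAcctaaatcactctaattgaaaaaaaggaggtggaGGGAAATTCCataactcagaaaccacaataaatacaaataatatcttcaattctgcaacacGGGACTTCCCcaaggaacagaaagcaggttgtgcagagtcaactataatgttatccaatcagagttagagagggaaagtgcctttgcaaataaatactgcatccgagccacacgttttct
CXCL11: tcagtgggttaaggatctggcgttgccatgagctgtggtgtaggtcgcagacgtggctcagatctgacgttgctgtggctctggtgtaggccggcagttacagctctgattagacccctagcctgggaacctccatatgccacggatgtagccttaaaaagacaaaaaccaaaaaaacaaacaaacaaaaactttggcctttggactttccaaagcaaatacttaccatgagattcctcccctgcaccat
The CXCL9 window held 1 match to the interferon response element, 211 to 202 bases before the start. The CXCL10 window held 1 such match 225 to 216 bases before the start and 2 matches to the NF-kB consensus at 181 to 172 and 120 to 111 bases before it. Neither motif was in the CXCL11 window. That window lies before the outermost RefSeq start of a gene that spans 11880 bases, against 4696 for CXCL9 and 2308 for CXCL10. Sequence before any start further inside the gene was not examined. Over the 19556 windows of this length before RefSeq genes, 3.01% held the interferon response element and 5.91% the NF-kB consensus. Among the 41 chemokine genes 4 windows (9.76%) held the former, those of CXCL9, CXCL10, CCL19 and CCR3, and 6 (14.6%) the latter. These matches describe letters in a window and not binding.

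CXCL10 was a DEG higher in liver. Its level in backfat was 8.21, 18.6, 8.36, 6.24 and 9.78 CPM and in liver 83.3, 138, 206, 23.9 and 145 CPM in boars 65, 67, 69, 71 and 72. The lowest liver library, that of boar 71, was still above all backfat libraries. CXCL10 had a log2 fold change of −3.54 ± 0.50 (FDR 7.11e-05), an 11.6-fold higher level in liver.

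CXCL11 was at 0.451, 1.59, 0.404, 0.216 and 0.892 CPM in backfat and 5.19, 3.0, 4.74, 1.77 and 3.28 CPM in liver of the same boars. It did not overlap either, with a log2 fold change of −2.34 ± 0.52 (FDR 0.00207). It was −1.66 (FDR 0.0174) with scaling by library size alone and so no longer a DEG.

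CXCL9 did not follow. It was at 25.5, 27.9, 11.6, 5.48 and 13.5 CPM in backfat and 12.3, 10.7, 12.3, 4.49 and 10.8 CPM in liver of boars 65, 67, 69, 71 and 72. The tissues overlapped, and the log2 fold change was 0.73 ± 0.41 (FDR 0.145), or 0.96 (FDR 0.0339) without backfat 71 and 1.45 (FDR 0.0144) with scaling by library size alone. Within a library the counts of CXCL9 were 3.11, 1.5, 1.39, 0.879 and 1.38 times those of CXCL10 in backfat of boars 65, 67, 69, 71 and 72, and 0.148, 0.0773, 0.0596, 0.188 and 0.0742 times in liver. The lowest backfat ratio was above the highest liver ratio, and the mean log2 ratio was 3.93 higher in backfat (0.59 ± 0.66 against −3.33 ± 0.71, SD, n = 5). The ratio of CXCL11 to CXCL10 overlapped, at 0.0347 to 0.0912 in backfat and 0.0217 to 0.0740 in liver. The balance of CXCL9 and CXCL10, which share the receptor CXCR3, thus separated the tissues, while that of CXCL11 and CXCL10 did not.

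**Figure D3:**
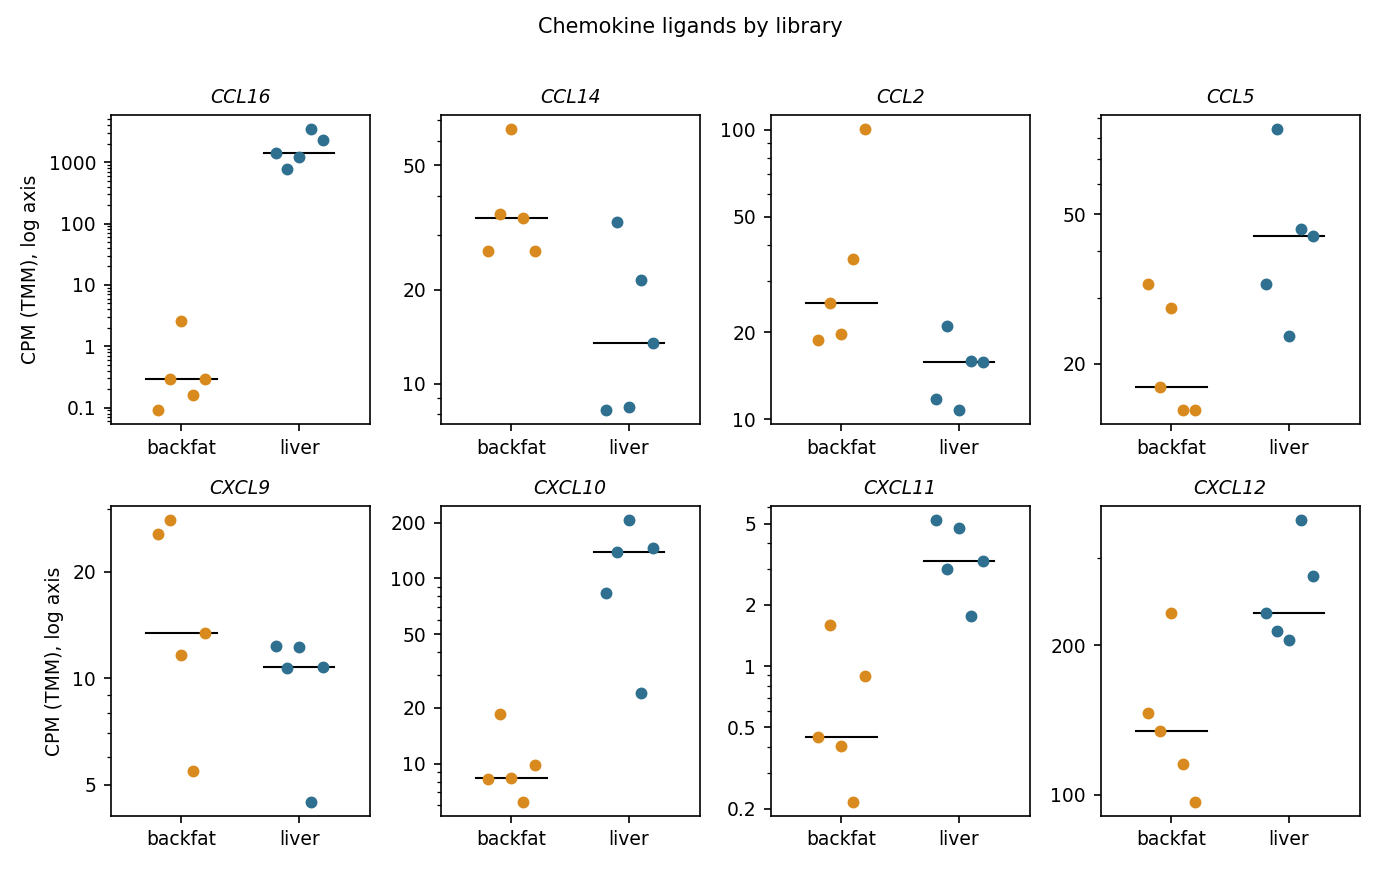
Level of 8 chemokine ligand genes in TMM-normalized CPM on a log axis, with a point for each library (boars 65, 67, 69, 71 and 72 from left to right) and a line at the median of the tissue. CCL16, CXCL10 and CXCL11 separate the tissues with the liver above, and the other 5 genes overlap between them.

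CXCL14, a ligand of epithelium and adipose tissue, was at 45.6, 32.7, 56.8, 50.2 and 47.5 CPM in backfat and 7.36, 12.3, 8.49, 7.61 and 11.7 CPM in liver of boars 65, 67, 69, 71 and 72. All backfat libraries were higher, and the log2 fold change was 2.29 ± 0.21 (FDR 1.58e-06). It was not called when the change itself was tested against the fold threshold (glmTreat, FDR 0.154). CXCL14 lies at chr2:137803988-137813118 on the minus strand.

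CXCL12, the homeostatic ligand of CXCR4 and ACKR3, was at 146, 135, 232, 115 and 96.9 CPM in backfat and 232, 214, 205, 357 and 275 CPM in liver. For CXCL12 the log2 fold change was −0.82 ± 0.26 (FDR 0.0168), and the tissues overlapped through backfat 69. With scaling by library size alone it was −0.079 (FDR 0.795). Its receptors were not shifted alike. The counts of ACKR3 were 7.47, 10.1, 10.7, 11.8 and 13.5 times those of CXCR4 in backfat of boars 65, 67, 69, 71 and 72, and 1.84, 1.47, 2.53, 2.23 and 2.58 times in liver.

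CXCL2 and CXCL8, which attract neutrophils, did not pass the FDR. CXCL2 was at 20.2 to 63.3 CPM in backfat and 7.77 to 46.1 CPM in liver (0.34 ± 0.45, FDR 0.545). CXCL8 had at most 22 counts in any library and a log2 fold change of −1.61 ± 0.82 (FDR 0.113), and with the boar as a block it passed the FDR (−1.65, FDR 0.0357). XCL1, a ligand made by T and NK cells, was at 0.404 to 1.17 CPM in backfat and 0.798 to 2.24 CPM in liver (−0.68 ± 0.40, FDR 0.165), highest in liver 67 and with a log2 fold change of −0.36 without it.

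**Figure D4:**
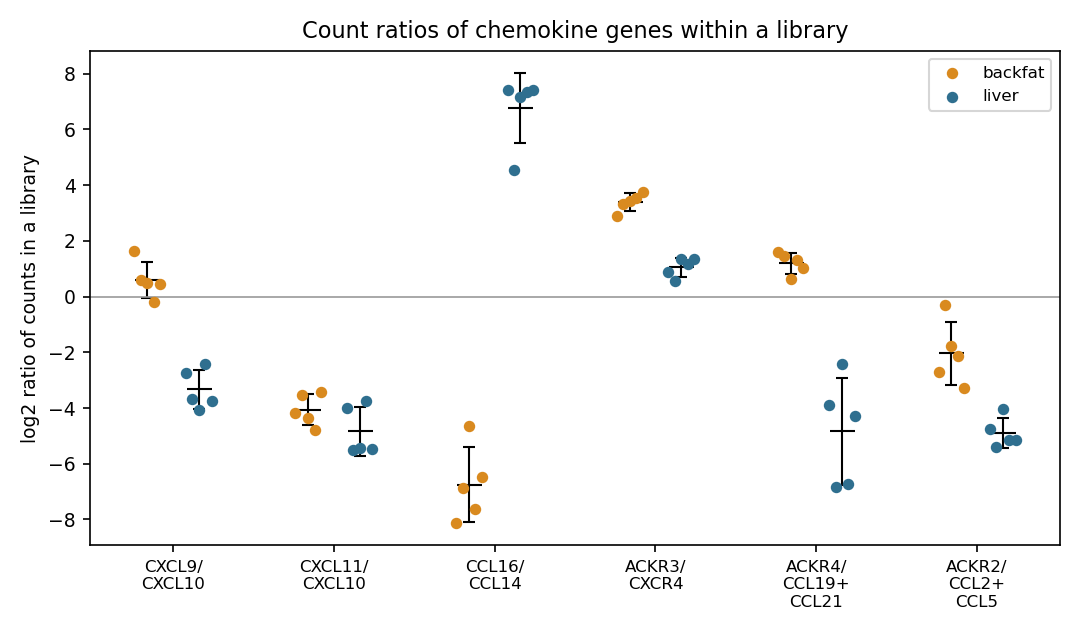
Log2 ratio of the counts of a pair of chemokine genes within a library, with 0.5 added to each count, for 5 backfat (orange) and 5 liver (blue) libraries, with black bars at the mean and its SD. The ratio of CXCL9 to CXCL10 runs from 0.879 to 3.11 in backfat and from 0.0596 to 0.188 in liver, and the ratio of CXCL11 to CXCL10 is the one of the 6 that overlaps.

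Levels per kilobase of exon were ranked within each tissue by the median of 5 libraries. In backfat the order began with ACKR4 (53.1 CPM per kilobase), CCL14 (44.1), CCL21 (34.4), CCL2 (33.3), CXCL14 (31.4), ACKR3 (27.5), CCL19 (26.0), ACKR1 (21.4), CCL5 (17.2) and CXCL12 (11.5), and each of these overlapped the next over its libraries. In liver CCL16 stood first with a median of 3897 CPM per kilobase and did not overlap the second gene, CCL21 (110.2). CXCL10 (96.3), CCL5 (43.4), CCL19 (30.7), CCL2 (20.8), CXCL12 (19.8) and CCL14 (17.6) followed. The 23 ligands other than CCL16 summed to 225 to 364 CPM per kilobase in backfat and 245 to 563 in liver, so the sums of the tissues overlapped once CCL16 was left out. The order depends on the annotated length. With RefSeq exon lengths CCL19 came first in backfat (70.0) and CXCL9 and CXCL2 joined the first 10, and CCL16 remained first in liver at 1904 CPM per kilobase.

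**Figure D5:**
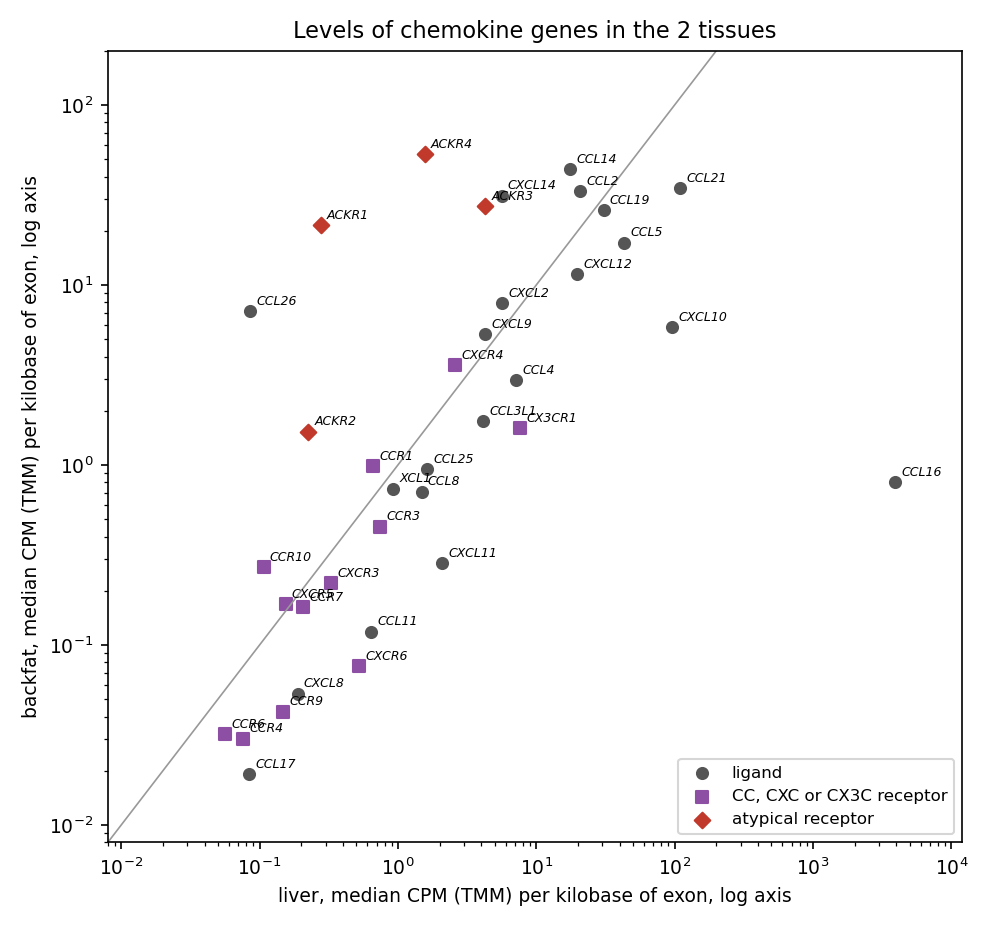
Median level over 5 libraries in TMM-normalized CPM per kilobase of exon, liver on the horizontal and backfat on the vertical axis, both log, for 37 chemokine genes, with a line at equal levels. CCL1, CCL27 and CCL28 have a median of 0 in a tissue and are not drawn. CCL16 lies far to the right of the line and the 4 atypical receptors above it.

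Genes around the chemokine system were counted from lists. Of 5 near relatives tested, all passed the FDR with a higher level in liver and 1 was a DEG, RARRES2, the attractant chemerin, at 957 ± 299.8 CPM in liver and 56.2 ± 15.2 in backfat (SD, n = 5, log2 fold change −4.09 ± 0.31, FDR 3.50e-07). Its receptor CMKLR1, XCR1, CCRL2 and the scavenger GPR182 had log2 fold changes of −1.24, −1.34, −1.10 and −1.81. Of 33 genes of chemokine receptor signalling 1 was a DEG, GNAI1, a subunit of the inhibitory G protein, which was higher in backfat (79.1 ± 41.4 against 6.68 ± 1.40 CPM, 3.57 ± 0.32, FDR 1.22e-06), while 9 passed the FDR in backfat and 5 in liver. Of 15 inducers and products of NF-kB signalling 0 were DEGs by edgeR, DESeq2 or limma-voom. In edgeR 6 had an unadjusted p under 0.05, and 2 passed the FDR in each direction (VCAM1 1.41 and NFKBIA 0.61 in backfat, RELA −0.83 and IRAK3 −1.25 in liver).

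Of 12 genes induced by interferon gamma 0 were DEGs by edgeR, DESeq2 or limma-voom, and 4 had an unadjusted p under 0.05 in edgeR. IRF8 (−1.85 ± 0.38, FDR 0.00128) passed the FDR in liver, and GBP1 (0.97 ± 0.31, FDR 0.0184) passed it in backfat. Among 7 peptidases that trim chemokines, DPP4, which clips CXCL10 and CXCL12 near their first residue, was a DEG higher in liver (179 ± 48.8 against 4.06 ± 0.82 CPM, SD, n = 5, −5.46 ± 0.27, FDR 1.52e-08). MMP2 (4.36 ± 0.25, FDR 3.24e-08) and FAP (2.92 ± 0.35, FDR 1.75e-05) were DEGs higher in backfat.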

How the data were processed

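The data are RNA-seq of backfat and liver, 5 libraries each. The 10 bisulfite libraries of the same tissues were not used, since their deposited calls carry no gene. According to the methods and the file header, the authors trimmed the reads with Trimmomatic, mapped them with HISAT2 to Sscrofa11.1 and counted them over exons with featureCounts 2.0.1 and Ensembl release 99 without strand. The deposited values are raw counts per gene, 43820042 to 61772737 per library. Symbols were matched by Ensembl identifier for 15029 genes.

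Tests were run with edgeR 4.0.16 under R 4.3.3 (filterByExpr, TMM, quasi-likelihood test, tissue as the only term, Benjamini-Hochberg over 16275 genes). The SE of a log2 fold change was derived from this test, as its absolute value divided by the square root of the F statistic. The thresholds of a DEG are those of the study. The authors used DESeq2 and it was kept as an alternative (DESeq2 1.42.0), with limma 3.58.1 (voom), glmTreat, other scalings and filters, the boar as a block and each library left out. Boar numbers come from the column names and were not tied to the replicate numbers of the labels. The deviations of the 2 libraries of a boar from their tissue means correlated at 0.220, 0.0918, 0.0270, 0.171 and 0.126. The genes given with values were all those called or with at least 1 CPM in all libraries of a tissue, and from the other lists the 3 DEGs with the largest change in each direction. Further genes of these lists that passed the FDR, and members below that level, were named after their values were seen. The members, lists and pairs were chosen with earlier results of these data known. Some genes of the rule and the lists are not reported here. Marker levels are sums of CPM without TMM. Positions and the windows before gene starts are from RefSeq on Sscrofa11.1. Methods were tested on simulated data, and figures were made with Python 3.11.15 and matplotlib 3.10.9.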

Additional observations from a re-analysis of the deposited data

Results flagged for a closer look

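In 9 of 72 sets of 5 libraries, 1 library of a chemokine gene lay further from the other 4 than Dixon's limit of 0.71 of the range. For normally distributed values chance flags about 1 in 20 such sets. The levels were not log-transformed and the genes share libraries, so the 9 of 72 cannot be set against that share. In backfat, boar 67 had the highest ACKR2 (34.6 CPM) and CXCL10 (18.6 CPM), boar 69 the highest CCL14 (65.3 CPM) and CCL16 (2.59 CPM), boar 72 the highest CCL2 (100.4 CPM) and boar 65 the highest CXCR5 (1.59 CPM). In liver, boar 67 had the highest CCR7 (7.34 CPM) and XCL1 (2.24 CPM), and boar 71 the lowest CXCL9 (4.49 CPM). The liver library of boar 67 was the highest of its tissue in 19 of the 36 genes tested, beside 3 to 6 genes for each of the other 4, and it was also the one with 444789 CPM of mitochondrial genes. The part of its make-up in these levels was not tested.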

How the results depend on the processing

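The counts of DEGs (6 higher in backfat, 6 in liver) and of genes past the FDR (9 and 13) were the same with DESeq2, with its size factors and without mitochondrial genes. With the boar as a replicate block they were also 6, 6, 9 and 13 and no DEG call changed, but CCL25 no longer passed the FDR (0.0526) and CXCL8 came to pass it (0.0357). Scaling by library size alone moved the all-gene median of the log2 fold change to 0.71 and the share of DEGs higher in liver from 50.1% to 31.8%. It left 3 chemokine DEGs and 6 genes past the FDR higher in liver beside 8 and 13 higher in backfat, where CCR1 (0.0214), CXCR4 (0.00199), CXCL2 (0.0265) and CXCL9 (0.0144) came to pass the FDR, raised the DEGs of the other lists from 5 to 8, and turned the sign of genes such as CCL25 (0.058), CCL8 (0.013), CCR3 (0.39), CXCR3 (0.080) and XCL1 (0.099). glmTreat left 3 DEGs higher in liver, and a minimum of 10 counts in every library left 2 of 28 members tested, since it drops genes near 0 in backfat, and reduced the DEGs over all genes from 1814 and 1819 to 871 and 981. Over all genes glmTreat gave 1126 and 1287 DEGs and library size alone gave 2874 and 1340. CXCR5 ranged from −0.056 (without backfat 65) to 0.38 over the libraries left out. With single libraries left out, the members held 6 DEGs higher in backfat each time and 5 or 6 in liver, 8 to 10 and 12 to 15 genes past the FDR, and the other lists 5 or 6 DEGs. The FDR of CCL25 rose above 0.05 without backfat 65, backfat 67, backfat 71 or liver 65 (0.0508 to 0.0579), and that of CCR7 and CXCL8 fell below it without liver 65 and liver 71 (0.0438 and 0.028), while CCR7 was at 0.364 without liver 67. CCR9 was no DEG without backfat 69 (−1.86), backfat 71 (−1.93) or liver 67 (−1.69), nor with no filter beyond 1 count (−2.0). With TMM, 4 in place of 7 marker sums had a library set apart. Causes not named were not tested. Chosen after seeing the data were the RefSeq lengths, which kept 8 and 9 of the first 10 genes in backfat and liver, and the ratios, whose leave-one-out range was 3.67 to 4.16 for CXCL9 over CXCL10. Depth limits CCR9, CXCL8, CCL28 in backfat and CCL26 in liver, with few counts.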
